A study of Rattus norvegicus with 28 samples.

Results

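The genes described here are 36 genes of fatty acid synthesis, fatty acid activation and fatty acid oxidation, whose transcripts were sequenced in bulk from INS-1, a cell line of rat insulinoma origin that secretes insulin. They were found by symbol among 17455 symbols of the deposited table, with 1 transcript kept for each. The list was made with earlier results of these data known, so its counts are not independent of them. By role, 13 serve synthesis, 3 attach coenzyme A to free fatty acids and 20 serve oxidation. Tests covered 10275 genes whose mean over the libraries reached 1 TPM, a relative transcript level corrected for transcript length, and 34 of the 36 were among them. Acetyl-CoA carboxylase 2 (Acacb), with 0.138 to 0.653 TPM as the lowest and highest group means, and the nuclear receptor Ppara, with 0.255 to 0.792 TPM, fell below that level and were not tested.

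The cells were wild type (WT) or carried the S983A substitution in Med14, the subunit that holds together the Mediator complex between transcription factors and RNA polymerase II. Med14 S983A cells came from CRISPR-edited cells sorted as single cells, and the study's methods speak of 2 such lines made independently. The labels do not say which line a library came from, so differences of genotype and of line cannot be told apart here. All cells had been moved to serum-free medium, and they were then left untreated (CON) or exposed for 1, 8 or 16 h to an agent that raises cAMP. One was exendin-4 (Ex-4) at 10 nM, a peptide that acts through the receptor for the incretin hormone GLP-1, and the other was forskolin (FSK) at 10 µM, which acts on adenylyl cyclase itself. The 28 libraries formed 14 groups of 2. The study's methods call the duplicates biological replicates. The labels do not say whether they were separate cultures or separate lines, and the p-values measure only the spread between these libraries.

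Fatty acids are built in the cytosol from citrate that leaves the mitochondrion. Citrate is split to acetyl-CoA, acetyl-CoA is carboxylated to malonyl-CoA, and fatty acid synthase joins these units into palmitate, which elongases and desaturases then modify. Oxidation runs the other way in the mitochondrion: a fatty acid bound to coenzyme A is passed to carnitine, carried across the inner membrane, and shortened in repeated cycles whose electrons go to the respiratory chain. Malonyl-CoA inhibits the carnitine step, so that the routes are known to oppose each other, and in beta cells the balance between them is known to couple glucose to lipid signals for insulin secretion.

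The libraries held 42551133 to 57231981 fragments, apart from a single library, replicate 2 of the mutant at 8 h of FSK, with 92635979. All 11 measured marker genes of beta cells had a median over 10 TPM. Their summed level was 51396 to 52324 TPM in WT CON and 80943 to 89844 TPM in Med14 S983A CON. Of the alpha cell markers, Irx2 was at 0 in every library, and glucagon (Gcg) moved with both genotype and treatment. Gcg had 165 to 169 TPM in WT CON, 947 to 966 TPM in WT at 16 h of Ex-4, 761 to 809 TPM in WT at 16 h of FSK and 6.09 to 6.56 TPM in Med14 S983A CON. Every marker of delta, pancreatic polypeptide, acinar and hepatocyte cells, fibroblasts and macrophages that was measured had a median at or below 1 TPM. Of 2 duct and 3 adipocyte markers, 1 each was above it, Sox9 and Cidec. The part of these shifts in the results below was not tested, and in bulk RNA fewer cells of a type and less RNA per cell cannot be told apart. The share of spike-in RNA (ERCC) also differed, here as the mean and SD of 2 libraries in percent of fragments. WT CON had 0.908% ± 0.0630, the WT groups at 16 h had 0.744% ± 0.0128 with Ex-4 and 0.714% ± 0.0317 with FSK, and Med14 S983A CON had 0.827% ± 0.0122. Results are therefore given in TPM as deposited and, where scaling to the spike-in or centring each library on its median moved the balance of higher and lower genes, with that balance as well.

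Promoter sequences were at hand from RefSeq (assembly GRCr8, 250 bases before to 50 bases after the start) for 30 of the 36 genes. Those shown belong to the desaturase pair and the synthetase pair that rose together at 16 h of Ex-4, to the lipogenic regulator Srebf1, to the elongase gene Elovl5, which holds a full cAMP response element, and to Hadha, which lies head to head with its partner Hadhb. Capitals mark the CCAAT box (CCAAT) and the GC box (GGGCGG) on either strand, in Acsl4 also the letters TGACG, the core of a cAMP response element, and in Elovl5 also the full element (TGACGTCA) and the E-box (CACGTG). Fads1 is at chr1:216252442-216252741 on the plus strand, Fads2 at chr1:216171984-216172283 on the minus strand, Acsl3 at chr9:87563351-87563650 on the plus strand, Acsl4 at chrX:110803212-110803511 on the minus strand, Srebf1 at chr10:45529115-45529414 on the minus strand, Elovl5 at chr8:87670914-87671213 on the plus strand and Hadha at chr6:31907551-31907850 on the plus strand.
Fads1: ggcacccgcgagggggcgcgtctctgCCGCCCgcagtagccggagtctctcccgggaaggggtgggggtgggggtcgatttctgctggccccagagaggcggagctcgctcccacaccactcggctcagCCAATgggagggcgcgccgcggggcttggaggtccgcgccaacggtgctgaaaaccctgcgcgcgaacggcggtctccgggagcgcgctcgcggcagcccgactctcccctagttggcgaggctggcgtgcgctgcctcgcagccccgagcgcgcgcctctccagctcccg
Fads2: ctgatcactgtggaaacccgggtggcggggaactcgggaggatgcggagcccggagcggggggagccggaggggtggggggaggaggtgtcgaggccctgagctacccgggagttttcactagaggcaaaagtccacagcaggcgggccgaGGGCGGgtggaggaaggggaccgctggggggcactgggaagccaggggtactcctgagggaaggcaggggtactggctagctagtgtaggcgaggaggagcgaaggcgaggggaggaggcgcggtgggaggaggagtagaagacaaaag
Acsl3: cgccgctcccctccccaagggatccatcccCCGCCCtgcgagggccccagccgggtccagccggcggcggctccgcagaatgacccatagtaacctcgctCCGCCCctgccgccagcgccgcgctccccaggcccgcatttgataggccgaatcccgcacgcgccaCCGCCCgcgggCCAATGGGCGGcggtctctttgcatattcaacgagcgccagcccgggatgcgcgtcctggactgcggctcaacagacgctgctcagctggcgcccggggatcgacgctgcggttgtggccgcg
Acsl4: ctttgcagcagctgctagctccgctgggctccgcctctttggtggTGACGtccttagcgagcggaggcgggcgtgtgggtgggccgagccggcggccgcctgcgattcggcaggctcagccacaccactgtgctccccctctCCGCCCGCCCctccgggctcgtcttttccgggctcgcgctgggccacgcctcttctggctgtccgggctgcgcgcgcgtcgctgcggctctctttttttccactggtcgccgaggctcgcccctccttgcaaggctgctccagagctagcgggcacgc
Srebf1: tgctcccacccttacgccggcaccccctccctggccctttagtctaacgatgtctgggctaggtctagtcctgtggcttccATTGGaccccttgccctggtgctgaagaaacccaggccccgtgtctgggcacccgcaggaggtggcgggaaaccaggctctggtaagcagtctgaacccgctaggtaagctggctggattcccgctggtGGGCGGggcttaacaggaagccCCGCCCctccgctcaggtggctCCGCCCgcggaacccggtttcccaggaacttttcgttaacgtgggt
Elovl5: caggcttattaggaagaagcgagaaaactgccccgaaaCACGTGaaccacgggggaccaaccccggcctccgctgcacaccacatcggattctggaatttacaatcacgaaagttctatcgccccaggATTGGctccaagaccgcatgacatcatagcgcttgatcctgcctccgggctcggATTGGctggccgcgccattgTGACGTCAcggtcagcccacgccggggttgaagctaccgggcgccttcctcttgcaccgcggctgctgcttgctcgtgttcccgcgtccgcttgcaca
Hadha: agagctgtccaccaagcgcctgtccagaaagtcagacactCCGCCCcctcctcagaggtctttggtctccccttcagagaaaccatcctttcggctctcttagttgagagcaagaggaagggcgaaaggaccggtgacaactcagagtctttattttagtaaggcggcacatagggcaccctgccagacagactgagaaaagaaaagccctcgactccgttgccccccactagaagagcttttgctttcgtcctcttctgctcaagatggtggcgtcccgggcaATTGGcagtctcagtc

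In Acsl3 a CCAAT box runs straight into a GC box, and in Acsl4 GC boxes overlap each other. The GC box was in 6 of 10 synthesis promoters, 2 of 3 activation promoters and 13 of 17 oxidation promoters, against 34.9% of all 27457 promoters of this length. The CCAAT box was in 6 of 10, 2 of 3 and 4 of 17, against 37.7% of all. The full element TGACGTCA, which contains TGACG on both strands, was found in Elovl5 and Acadm alone among the genes described here, against 1.91% of all promoters. TGACG by itself was in 3 of 10, 1 of 3 and 2 of 17, against 22% of all, and the E-box CACGTG in Elovl5 alone, against 6.65% of all. Neither the sterol response element written as TCACNCCAC (1.13% of all) nor the DR1 element of PPAR receptors (0.0583% of all) was in any of the 30 windows, which says only that these letters are not there. No entry was at hand for Acaca, Fasn, Elovl6, Acadl, Acaa2 and Decr1. Promoters of Hadha and Hadhb overlap, since their windows share bases on opposite strands.

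In untreated WT cells the levels covered a wide range. ATP citrate lyase (Acly), which makes cytosolic acetyl-CoA, was the most abundant with 1387 ± 52.1 TPM (SD, n = 2), ahead of the hydroxyacyl-CoA dehydrogenase Hadh, an inhibitor of glutamate dehydrogenase in beta cells beside its part in oxidation, with 629 ± 9.25 TPM (SD, n = 2). The desaturase Fads2, which carries out the first desaturation step towards long-chain polyunsaturated fatty acids, had 376 ± 24.9 TPM (SD, n = 2). The trifunctional protein subunit Hadha had 281 ± 4.94 TPM (SD, n = 2). The carnitine palmitoyltransferase Cpt1a, the step that malonyl-CoA inhibits, was low, with 18.02 ± 0.378 TPM (SD, n = 2), while its inner membrane partner Cpt2 had 99.3 ± 2.16 TPM (SD, n = 2). Elovl6, the elongase of palmitate, had 0.691 ± 0.0651 TPM (SD, n = 2) and is annotated at more than 1 place in rn6, so its low level is uncertain.

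**Figure D1:**
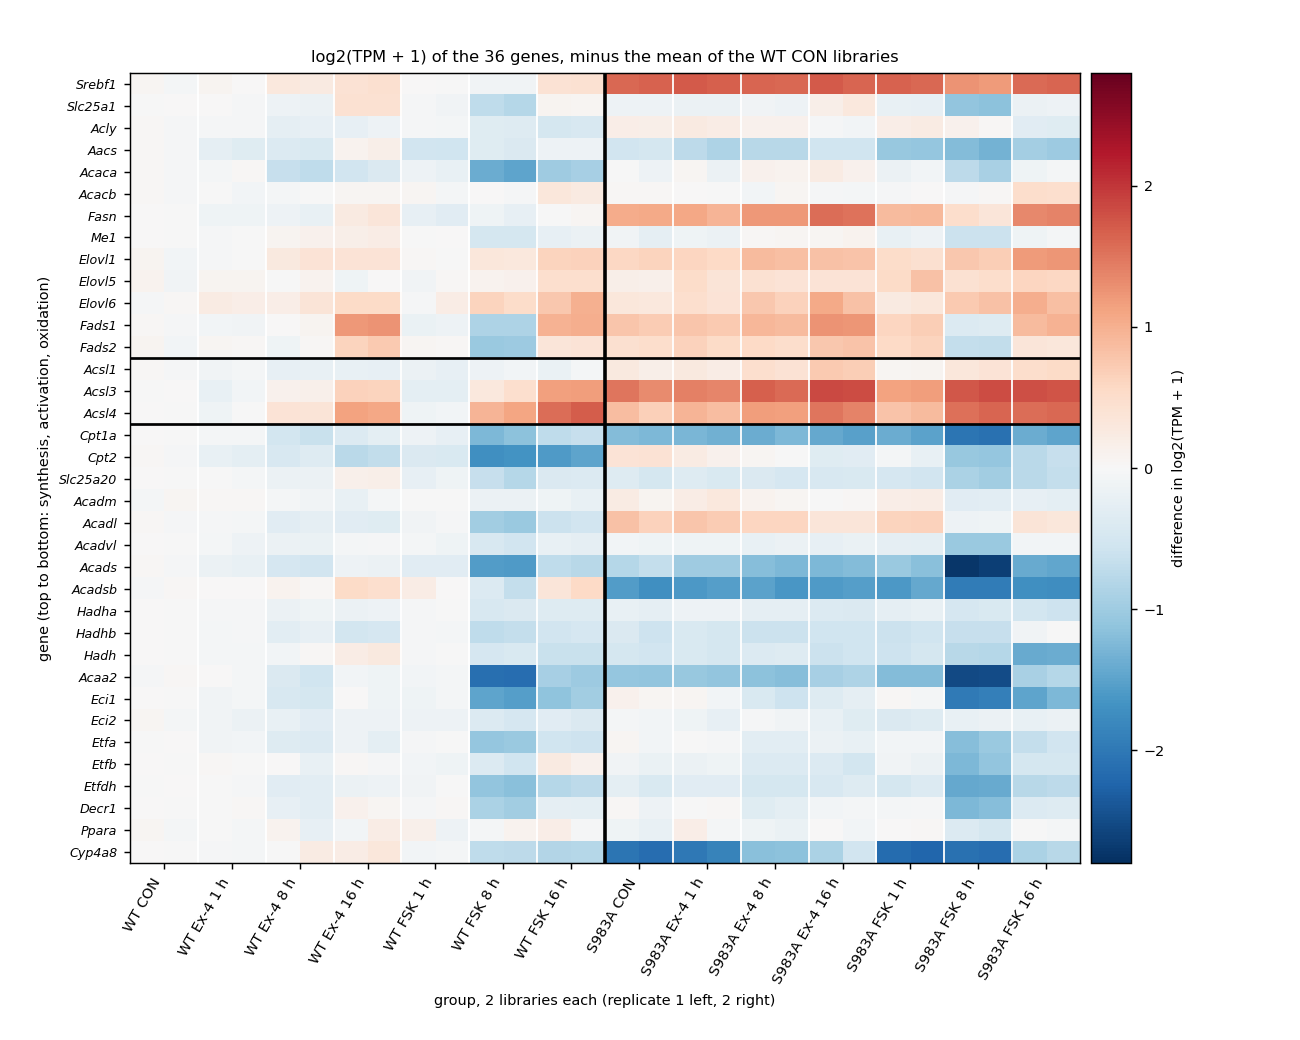
Difference of log2(TPM + 1) from the mean of the WT CON libraries for the 36 genes (vertical axis, in the order synthesis, activation, oxidation) in the 28 libraries (horizontal axis, 2 for each of 14 groups). Red is higher and blue is lower than WT CON. The left and right library of a group look alike throughout. Srebf1, Fasn and Acsl3 are red across Med14 S983A, Cpt1a, Acads, Acadsb, Acaa2 and Cyp4a8 are blue there, and 8 h of FSK gives the deepest blue in both genotypes.

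The first comparison asked how the mutant cells differed from WT before any treatment. The mutant cells had 7 of the 34 tested genes higher and 5 lower, where a gene was called at a limma adjusted p under 0.05 and more than a 1.5-fold change. Among all genes 8.29% were called higher and 11.1% lower. The called genes divided by role: 4 of 12 synthesis genes and 2 of 3 activation genes were higher and none of either role was lower, while 5 of 19 oxidation genes were lower and 1, Acadl, was higher. With ERCC scaling the counts over the 34 were 9 higher and 4 lower, as Fads2 (0.67) and the oxidation gene Cpt2 (0.60) were gained among the higher and Acads was lost, which made 2 oxidation genes higher and 4 lower. Over all 10275 genes, DESeq2 with ERCC size factors called 1542 higher and 865 lower. The median difference of the oxidation genes was −0.23, against −0.07 over all genes. Median-centring gave −0.14 against 0.02, and ERCC scaling −0.03 against 0.12. That of the synthesis genes was 0.24 in TPM, and 0.33 and 0.39 under these scalings.

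The synthesis side was led by its regulator. Srebf1 (NM_001276708, rn6 chromosome 10, 46570996 to 46582854), the transcription factor of lipogenic genes, had 61.7 and 56.3 TPM in the WT CON libraries and 182 and 189 TPM in the Med14 S983A CON libraries, a log2 difference of 1.63 (SE 0.04, limma adjusted p 6.2e-21). Fatty acid synthase (Fasn, NM_017332, rn6 chromosome 10, 109987735 to 110005901) had 108 and 107 TPM against 223 and 227 TPM, a difference of 1.06 (SE 0.05, limma adjusted p 7.6e-16). In both genes the pairs of CON libraries lay far apart, and over all 28 libraries no WT library reached the lowest Med14 S983A library. For Fasn this margin was narrow, with 136.2 TPM in a WT library at 16 h of Ex-4 and 137.7 TPM in a Med14 S983A library at 8 h of FSK. For Srebf1 the same limits were 81.3 and 135.6 TPM. Fads1, the desaturase that makes arachidonic acid, differed by 0.75 (SE 0.04, limma adjusted p 4.3e-15), and the long-chain elongase Elovl1 differed by 0.60 (SE 0.04, limma adjusted p 2.7e-12). Without replicate 2 of WT CON or of Med14 S983A CON, the difference of Elovl1 was 0.53 or 0.58 and was no longer called. Other enzymes of the same route were near their WT levels and were not called: Acly differed by 0.17, acetyl-CoA carboxylase 1 (Acaca), which makes malonyl-CoA, by −0.07, malic enzyme (Me1), a source of NADPH, by −0.17 and the citrate carrier Slc25a1 by −0.14. Acetoacetyl-CoA synthetase (Aacs), which supplies acetoacetyl-CoA in the cytosol, had the lowest value of the synthesis genes with −0.52.

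Of the 3 long-chain acyl-CoA synthetases on this list, which activate fatty acids for either route, 2 were higher. Acsl3, an enzyme of the endoplasmic reticulum and lipid droplets, had 19.8 and 20.1 TPM in WT CON and 58.5 and 51.5 TPM in Med14 S983A CON, a difference of 1.41 (SE 0.06, limma adjusted p 4.2e-17). Acsl4, which prefers arachidonic acid, had 41.1 and 40.6 TPM against 75.2 and 65.1 TPM, a difference of 0.76 (SE 0.06, limma adjusted p 4.3e-11). For Acsl1 the difference was 0.22, in the same direction but below 1.5-fold. The family as a whole did not go one way. Acsl5, from another list, was lower by −0.82 (SE 0.04, limma adjusted p 9.4e-15), from a mean of 97.3 TPM in WT CON to 54.9 TPM. Acsl6, also from that list, was at −0.33 and not called.

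On the oxidation side the largest differences were not in the core enzymes of the spiral. Cyp4a8, a cytochrome P450 of the family that hydroxylates the far end of fatty acids, had 41.9 and 40.8 TPM in WT CON and 9.28 and 8.66 TPM in Med14 S983A CON, a difference of −2.09 (SE 0.08, limma adjusted p 4.2e-17). Closely related Cyp4a genes could share reads with it. Acadsb, the dehydrogenase of short branched acyl-CoA from isoleucine, had 2.95 and 3.15 TPM against 0.375 and 0.236 TPM, a difference of −1.64 (SE 0.10, limma adjusted p 2.1e-13) that understates the change, because 1 was added to a low level before taking the logarithm. The entry step Cpt1a had 18.3 and 17.8 TPM against 7.14 and 6.96 TPM, a difference of −1.24 (SE 0.07, limma adjusted p 3.5e-14). The thiolase Acaa2, which releases acetyl-CoA at the end of each cycle, had 47.5 and 49.9 TPM against 22.5 and 22.2 TPM, a difference of −1.09 (SE 0.05, limma adjusted p 1.3e-15). Together with Acads, the short-chain acyl-CoA dehydrogenase (−0.73, and −0.54 to −0.55, not called, with ERCC scaling or DESeq2), these made up the 5 lower genes. The long-chain dehydrogenase Acadl was higher by 0.73 (SE 0.05, limma adjusted p 1.5e-12), whereas its medium-chain and very-long-chain relatives Acadm and Acadvl differed by 0.16 and −0.11. The 13 oxidation genes that were not called ran from −0.51 in Hadh to 0.40 in Cpt2 in TPM. Cpt1b and Cpt1c, relatives of Cpt1a from another list, were not called either. Their means were 4.99 and 11.9 TPM in WT CON and 4.76 and 13.5 TPM in Med14 S983A CON. The study's authors had themselves picked Fasn, Cpt1a, Acadsb, Cyp4a8, Slc25a1 and the Acsl genes on these libraries, so the counts are not independent evidence of a direction.

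**Figure D2:**
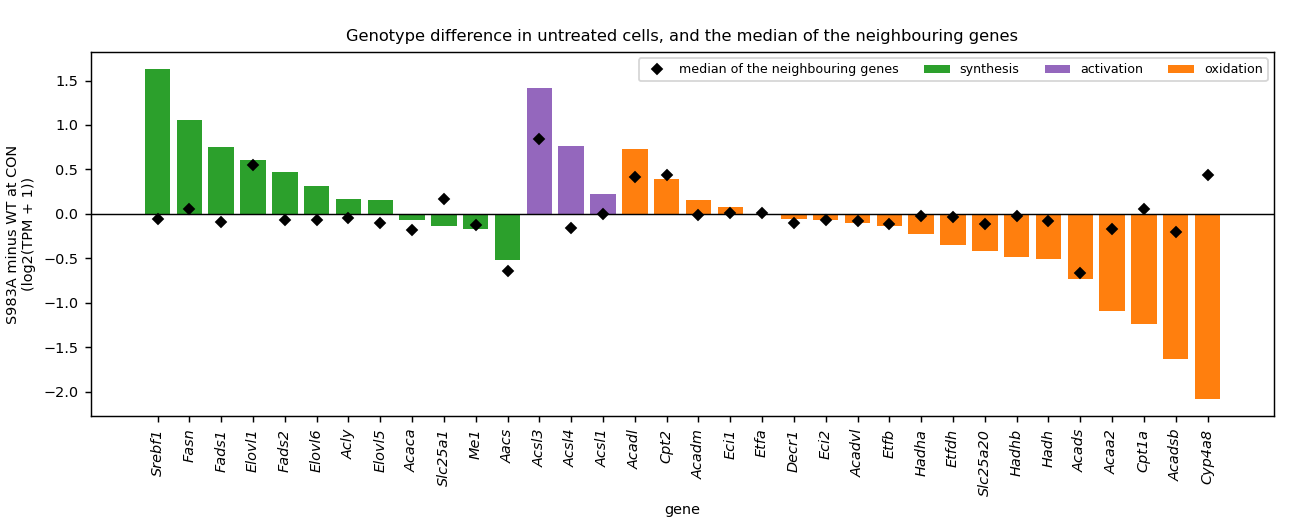
Log2(TPM + 1) difference of Med14 S983A minus WT at CON for the 34 tested genes (bars, coloured by role) with the median difference over the gene and up to 25 tested genes on either side on the chromosome (black diamonds). Acsl3 at 1.41 stands over a neighbourhood at 0.85, and Acads at −0.73 lies with its neighbours at −0.66, while the neighbourhoods of Srebf1, Fasn, Cpt1a and Acaa2 stay between −0.17 and 0.06.

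The difference of neighbouring genes was set beside each difference, because mutant lines were grown from single cells. For most genes the median of the 40 to 51 tested genes in the window, the gene itself included, was near 0: it was −0.06 around Srebf1, 0.06 around Fasn, 0.06 around Cpt1a and −0.21 around Acadsb. Whole neighbourhoods were shifted for some. The median was 0.85 around Acsl3, 0.41 around Acadl and 0.55 around Elovl1, whose own difference of 0.60 was close to it, and it was −0.66 around Acads, whose own difference was −0.73. The median was also −0.64 around Aacs, whose own difference was −0.52, and 0.44 around Cpt2, whose own difference was 0.40. Around Cyp4a8 the neighbours were higher by 0.44, in the direction opposite to the gene. What shifts these regions was not tested.

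Averaged over CON and the 6 treatments, the genotype difference was called for 5 higher and 6 lower genes, against 8.14% and 9.41% of all genes. The higher ones were Srebf1 (1.43), Acsl3 (1.29), Fasn (1.14), Acadl (0.79) and Acsl4 (0.62). Lower were Acadsb (−1.73), Cyp4a8 (−1.39), Cpt1a (−1.04), Acads (−0.85), Acaa2 (−0.72) and Aacs, at −0.62 in TPM and −0.57 to −0.58, not called, under both scalings, edgeR and DESeq2.

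The second comparison asked how WT cells responded to Ex-4. At 1 h limma called 0 of the 34 genes, against 2.87% of all genes, and edgeR and DESeq2 with ERCC size factors also called 0. At an unadjusted p under 0.05 there were 8, all lower, against 35.9% of all genes in either direction. The largest change was −0.30 in Aacs. Elovl5, whose promoter holds the cAMP response element, had 64.7 and 56.4 TPM in CON and 64.1 and 63.95 TPM at 1 h of Ex-4, the latter inside the range of the CON libraries. At 8 h 0 genes were higher and 1 lower, against 3.61% and 5.99% of all genes. This was Acaca, with 31.6 and 30.3 TPM in CON and 19.4 and 18.6 TPM at 8 h, a change of −0.67 (SE 0.07, limma adjusted p 1.4e-08), which was −0.51 to −0.55 and below 1.5-fold under both scalings.

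At 16 h of Ex-4, 4 genes were higher and 1 lower, against 3.53% and 8.28% of all genes. The balance depended on the scaling. Centring each library on its median gave 8 and 0, and the spike-in gave 10 and 0. In the same order the median over all genes was −0.16 in TPM, 0.03 and 0.14. Over all 10275 genes the balance moved as well, to 1134 higher and 363 lower by DESeq2 with ERCC size factors. The changes below are given in TPM. The 2 desaturases and the synthetases Acsl3 and Acsl4 were the 4 higher genes under the TPM values. Fads1 had 223 and 213 TPM in CON and 509 and 527 TPM at 16 h, a change of 1.24 (SE 0.04, limma adjusted p 9.5e-19). Fads2 had 394 and 358 TPM against 576 and 626 TPM, a change of 0.67 (SE 0.05, limma adjusted p 9.0e-12). At 8 h the libraries of these neighbouring genes had still overlapped those of CON, with 220.2 and 231 TPM in Fads1 and 348 and 383 TPM in Fads2.

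Acsl4 was at an intermediate level by 8 h. It had 41.1 and 40.6 TPM in CON, 53.5 and 52.99 TPM at 8 h and 89.9 and 87.9 TPM at 16 h, and the change at 16 h was 1.104 (SE 0.06, limma adjusted p 1.0e-13). Acsl3 had 31.8 and 31.3 TPM at 16 h against 19.8 and 20.1 TPM in CON, a change of 0.63 (SE 0.06, limma adjusted p 6.7e-10). In both genes the libraries at 16 h lay above those in CON without overlap. Acsl1, at −0.22, was not called.

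Synthesis genes below the 1.5-fold limit in TPM were Slc25a1 at 0.44, Srebf1 at 0.43, Elovl6 at 0.53, Elovl1 at 0.39 and Fasn at 0.30. All 5 were called higher with ERCC scaling, at 0.62 to 0.76. Acaca was at −0.47 and Acly at −0.19, neither called. The oxidation gene Acadsb, with 2.95 and 3.15 TPM in CON and 4.88 and 4.58 TPM at 16 h, was at 0.50 in TPM and not called, but was called higher under 5 other settings, at 0.61 to 0.95, including both scalings. Cpt2 was the 1 lower gene, with 101 and 97.8 TPM in CON, 72.04 and 76.5 TPM at 8 h and 58.3 and 60.9 TPM at 16 h. Its change at 16 h was −0.73 (SE 0.05, limma adjusted p 1.3e-11) in TPM. Median-centred it was −0.54 and scaled to the spike-in −0.41, neither called. The median of the 19 oxidation genes was −0.13 in TPM, 0.06 when median-centred and 0.19 when scaled to the spike-in, so its direction rested on the scaling. For the 12 synthesis genes it was 0.34, 0.53 and 0.66.

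**Figure D3:**
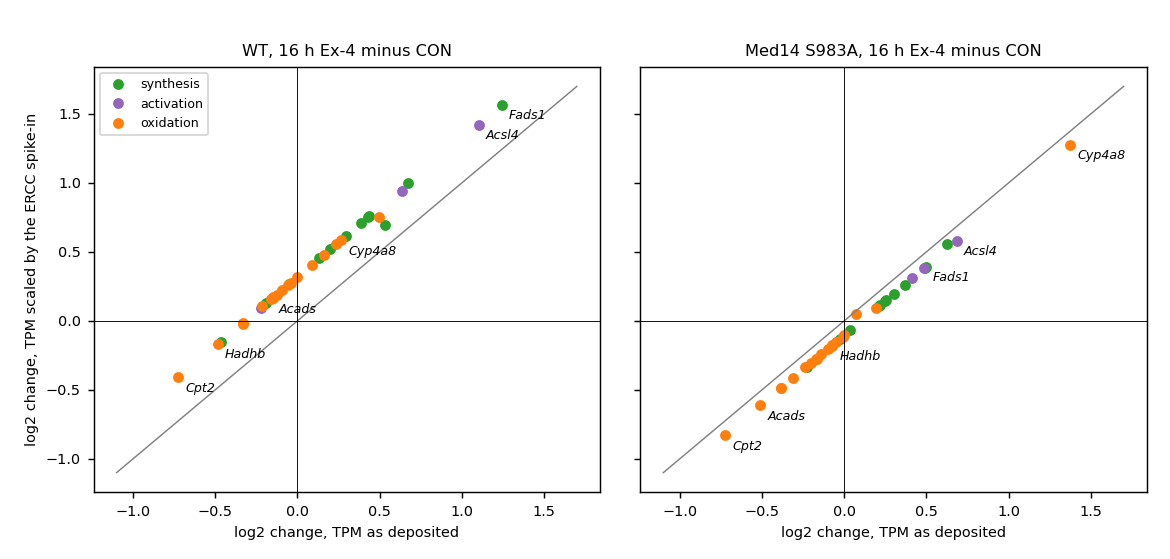
Log2 change of the 34 tested genes at 16 h of Ex-4 against CON in WT (left) and Med14 S983A (right), with TPM as deposited on the horizontal axis and TPM scaled by the ERCC spike-in on the vertical axis; the grey line marks equal values. In WT every gene lies above the line and in Med14 S983A every gene lies below it, and the order of the genes, with Fads1 and Acsl4 highest and Cpt2 lowest in WT, is nearly the same on both axes.

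FSK was compared with CON in the same way, and both comparisons share the WT CON libraries. At 1 h limma called 0 genes, against 7.47% of all genes, as did edgeR and DESeq2. An unadjusted p under 0.05 was found for 12 genes, all lower, against 51.0% of all genes in either direction. The largest change was in Aacs, with 282 and 269 TPM in CON and 189 and 186 TPM at 1 h, or −0.55 (SE 0.04, limma adjusted p 6.4e-11), just below the 1.5-fold limit. At 8 h, 1 gene was higher and 16 were lower, against 8.77% and 34.8% of all genes. Of the 19 oxidation genes, 12 were lower, and of the 12 synthesis genes 4 were lower. After median-centring the counts over the 34 were 4 higher and 10 lower. The median of the oxidation genes was −0.73 and that of all genes −0.34 in TPM. Median-centring brought these to −0.34 and 0.05, and the spike-in to −0.72 and −0.33. A large share of all genes was lower in this group, so the falls cannot be called particular to these genes.

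Genes from the entry step to the final thiolase were among the lower ones at 8 h. Acaa2 had 47.5 and 49.9 TPM in CON and 10.5 and 10.3 TPM at 8 h, a change of −2.12 (SE 0.05, limma adjusted p 7.3e-22), and it had 25.2 and 23.7 TPM at 16 h. Cpt2 fell from 101 and 97.8 TPM to 29.4 and 30.6 TPM, a change of −1.69 (SE 0.05, limma adjusted p 7.3e-20). Acads changed by −1.57, the enoyl-CoA isomerase Eci1, needed for unsaturated chains, by −1.51, and Cpt1a by −1.21, and Acadl was lower as well. Electron transfer flavoprotein and its dehydrogenase, which pass the electrons on, followed unevenly: Etfdh changed by −1.14 and Etfa by −1.06, while Etfb at −0.47 was not called. Decr1, which removes double bonds, changed by −0.92, Cyp4a8 by −0.73, the carnitine carrier Slc25a20 by −0.71 and Hadhb by −0.69. The last 3 were between −0.30 and −0.43 and not called after median-centring or by edgeR, and Decr1 was −0.53 and not called after median-centring.

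Synthesis genes at 8 h of FSK included the same desaturases that rose at 16 h. Fads1 had 119 and 120.4 TPM against 223 and 213 TPM in CON, a change of −0.86 (SE 0.04, limma adjusted p 9.0e-17), which was −0.47 after median-centring and −0.54 by edgeR, not called. Fads2 had 182 and 185 TPM, a change of −1.03 (SE 0.05, limma adjusted p 2.5e-16). Acaca changed by −1.43 and Slc25a1 by −0.76, the latter −0.37 after median-centring. Acsl4 was the 1 higher gene, with 80.4 and 88.3 TPM and a change of 1.03 (SE 0.06, limma adjusted p 4.4e-14).

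At 16 h of FSK, 5 genes were higher and 9 lower, against 10.3% and 24.1% of all genes. Under either scaling 9 were higher and 4 lower. The median of all genes went from −0.20 in TPM to 0.04 and 0.14 with these scalings. Of all 10275 genes, DESeq2 with ERCC size factors called 2301 higher and 1402 lower. The 5 higher genes in TPM were synthesis and activation genes, while Acadsb, at 0.44 and not called in TPM, was called higher with both scalings, edgeR and DESeq2, at 0.68 to 0.94. Acsl4 had 123 and 135 TPM, a change of 1.63 (SE 0.06, limma adjusted p 4.8e-18), and Acsl3 had 45.7 and 46.4 TPM, a change of 1.17 (SE 0.06, limma adjusted p 1.0e-15). Fads1, at 432 and 445 TPM, had passed from below CON at 8 h to above it, a change of 1.003 (SE 0.04, limma adjusted p 5.8e-18). Elovl6 had 0.645 and 0.737 TPM in CON and 1.84 and 2.36 TPM at 16 h, a change of 0.87 (SE 0.10, limma adjusted p 3.5e-08), and Elovl1 changed by 0.64, or by 0.57, not called, without replicate 2 of WT CON.

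Lower at 16 h were 8 oxidation genes and Acaca. Cpt2 had 32.3 and 34.9 TPM, a change of −1.54 (SE 0.05, limma adjusted p 7.4e-19), and so stayed near its level at 8 h. Eci1 had 40.3 and 39.9 TPM in CON and 17.8 and 19.8 TPM, a change of −1.05 (SE 0.07, limma adjusted p 4.1e-13). Acaca had 15.01 and 15.7 TPM, a change of −0.97 (SE 0.07, limma adjusted p 3.6e-12), and Acaa2, described above, changed by −0.97 (SE 0.05, limma adjusted p 7.3e-15). The other 5 were Cyp4a8 (−0.80), Etfdh (−0.76), Acads (−0.74), Cpt1a (−0.67) and Hadh (−0.62), and all 5 were below 1.5-fold under both scalings. In the oxidation genes the median was −0.57 in TPM, −0.33 when median-centred and −0.20 when scaled to the spike-in.

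**Figure D4:**
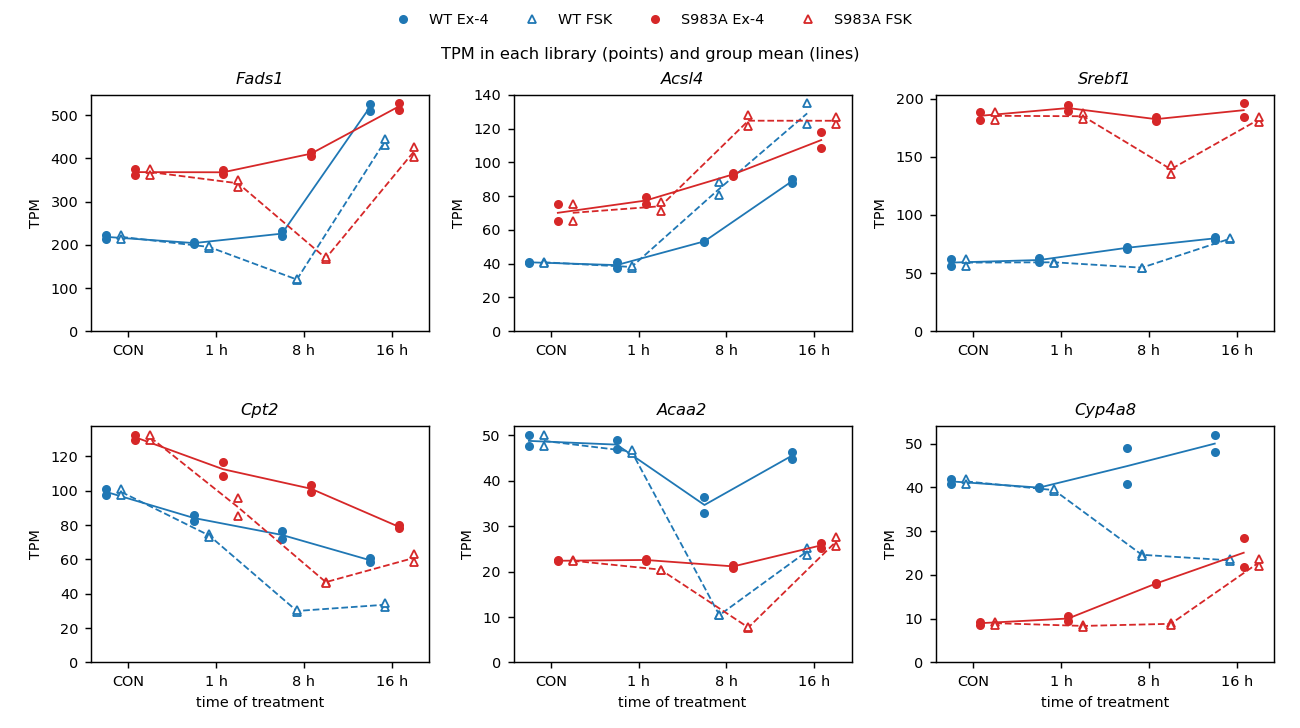
TPM of 6 genes (vertical axis, from 0) in CON and after 1, 8 and 16 h (horizontal axis) in WT (blue) and Med14 S983A (red), with filled circles and solid lines for Ex-4 and open triangles and dashed lines for FSK. Points are single libraries and lines join the group means. Fads1 dips at 8 h of FSK and is above CON at 16 h in both genotypes, Acaa2 and Cyp4a8 of the genotypes meet at 16 h of FSK, and the Srebf1 libraries of the genotypes stay apart throughout.

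Ex-4 and FSK at 16 h were also set against each other in WT. Of the 34 genes, 6 were higher with Ex-4 and 0 lower, against 11.4% and 7.29% of all genes, and all 6 were oxidation genes. Hadh had 722 and 760.1 TPM with Ex-4 and 410.1 and 406 TPM with FSK, a difference of 0.86 (SE 0.04, limma adjusted p 2.6e-16). Those of the others were 1.07 for Cyp4a8, 0.999 for Eci1, 0.87 for Acaa2, 0.81 for Cpt2 and 0.61 for Etfdh, which dropped to 0.56 to 0.58, not called, under both scalings, DESeq2 and without replicate 1 of the FSK group. For the rises the 2 agents gave side by side 509 and 527 and 432 and 445 TPM in Fads1, a difference of 0.24, and 89.9 and 87.9 and 123 and 135 TPM in Acsl4, a difference of −0.53, below 1.5-fold. Under DESeq2 3 genes were lower with Ex-4, namely Acsl3, Acsl4 and Elovl6, so that the split of 6 and 0 became 5 and 3. Whether the doses were matched in their effect on cAMP was not tested.

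In Med14 S983A cells the same treatments were compared with Med14 S983A CON. At 1 h limma called 0 genes for either agent, against 3.04% of all genes for Ex-4 and 10.4% for FSK. At an unadjusted p under 0.05 there were 7 for Ex-4 and 14 for FSK, against 35.6% and 57.1% of all genes. For FSK edgeR called 1 gene, which was higher, and median-centring called the same gene (0.67). DESeq2 called 3, all lower: Aacs (−0.75), Cpt2 (−0.74) and Acads (−0.59). ERCC scaling called Aacs (−0.75) and Cpt2 (−0.74) lower as well. In TPM these falls were −0.55 in Aacs, −0.53 in Cpt2 and −0.37 in Acads. This comparison had an all-gene median of −0.32 by DESeq2 and −0.11 in TPM, so the direction of the calls moved with the scaling. The gene that edgeR called was Elovl5, named here after its values were seen, with 68.1 and 67.2 TPM in CON and 88.3 and 107 TPM at 1 h of FSK, a change of 0.52 (SE 0.07, limma adjusted p 1.1e-06) in TPM. In WT the same gene had 56.1 and 62.3 TPM at 1 h of FSK against 64.7 and 56.4 TPM in CON, and the difference between the genotypes at 1 h was not tested. At 8 h of Ex-4, 1 gene was higher and 0 lower, against 3.21% and 3.09% of all genes. That gene was Cyp4a8, with 9.28 and 8.66 TPM in CON, 17.9 and 18.1 TPM at 8 h and 21.8 and 28.3 TPM at 16 h. Its changes were 0.93 (SE 0.08, limma adjusted p 1.3e-09) and 1.38 (SE 0.08, limma adjusted p 4.7e-13), and no library at 8 or 16 h overlapped those in CON.

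By 16 h of Ex-4 the mutant cells had 3 higher genes and 1 lower, against 4.73% and 7.15% of all genes, which the spike-in turned into 1 and 2 as it moved the median of all genes from −0.06 to −0.15. DESeq2 with ERCC size factors called 454 of all 10275 genes higher and 1281 lower. Beside Cyp4a8 the higher ones in TPM were Acsl4, with 118 and 108 TPM and a change of 0.69, and Elovl6, with a change of 0.63. Acsl4 dropped to 0.58 without replicate 2 of CON and Elovl6 to 0.50 without replicate 1 of the Ex-4 group, neither then called. Cpt2 was lower, with 129.7 and 133 TPM in CON and 78.1 and 80.01 TPM, a change of −0.72 (SE 0.05, limma adjusted p 1.3e-11), beside −0.73 in WT. The values of Cpt2 in Med14 S983A and WT were also close by edgeR (−0.68 and −0.59) and after median-centring (−0.66 and −0.54, the latter not called). With ERCC scaling or DESeq2 they were −0.83 in Med14 S983A and −0.41 in WT, the latter not called. Fads1 went from 376 and 360.4 TPM to 527 and 513 TPM, a change of 0.50 that was not called, and these libraries overlapped those of WT at 16 h, which had 509 and 527 TPM.

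FSK at 8 h gave 1 higher and 17 lower genes in Med14 S983A, against 11.6% and 34.5% of all genes, and 4 higher and 12 lower after median-centring, which moved the median of all genes from −0.28 to 0.06. The lower ones were 11 oxidation and 6 synthesis genes, with the largest changes in Eci1 (−2.03), Acads (−1.94), Cpt2 (−1.47) and Acaa2 (−1.43). Fasn was among them here, with 223 and 227 TPM in CON and 153 and 138 TPM at 8 h, a change of −0.63, which was −0.30 after median-centring and −0.56 without replicate 2 of the FSK group, the most deeply sequenced library. Acsl4 was again the 1 higher gene, at 0.82. At 16 h, 4 were higher and 4 lower, against 12.2% and 21.1% of all genes, and 7 were higher and 3 lower with ERCC scaling, where the median of all genes was 0.12 in place of −0.10. Of all 10275 genes, DESeq2 with ERCC size factors called 2259 higher and 1607 lower at 16 h. In TPM, Cyp4a8 (1.25), Acsl4 (0.82), Elovl6 (0.62) and Elovl1 (0.61) were higher, and Eci1 (−1.45), Cpt2 (−1.096), Hadh (−0.88) and Acads (−0.71) were lower. Without replicate 1 of that FSK group the value of Elovl6 was 0.53, not called. Over the 12 treatment comparisons of both genotypes, 9 of the 34 genes were never called by limma on TPM: Srebf1, Acly, Me1, Elovl5, Acsl1, Acadm, Acadsb, Hadha and the enoyl-CoA isomerase Eci2. Of these, Srebf1, Elovl5 and Acadsb were called in some comparisons under other settings, such as Srebf1 at 16 h of both agents in WT with ERCC scaling (0.75 and 0.79) and the very low Acadsb at 8 h of FSK in Med14 S983A by edgeR (−2.30).

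FSK at 8 h stood below the groups on either side of it for most of these genes, a pattern noticed after the values were seen. In WT both libraries at 8 h lay below both CON and both 16 h FSK libraries for 23 of the 34 genes, 8 of 12 for synthesis and 15 of 19 for oxidation, against 43.1% of all genes. In Med14 S983A it was again 23 of 34, with 8 of 12 and 15 of 19, against 44.5% of all genes. Acsl1, Acsl3 and Acsl4 were outside this pattern in both genotypes.

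The last question was whether a response differed between the genotypes, tested as an interaction, the change in Med14 S983A minus the change in WT. It shares the CON libraries with the genotype comparison, so a gene that differed at CON and not after treatment shows in both. At 8 h of Ex-4, 2 genes were higher and 0 lower, against 1.98% and 0.798% of all genes. At 16 h of Ex-4 there were 3 and 1, against 5.43% and 1.81%. At 8 h of FSK there were 3 and 0, against 7.65% and 6.21%, and at 16 h of FSK 4 and 3, against 10.6% and 6.4%. Scaling bore most on the second: with ERCC scaling 1 gene was higher and 13 were lower at 16 h of Ex-4, where the median of all genes moved from 0.09 to −0.31. At 16 h of FSK it gave 4 higher and 6 lower, and at 8 h of FSK 2 and 2. The 2 lower genes at 8 h of FSK were Etfb (−0.68, and −0.58 in TPM) and Eci1 (−0.62, and −0.52 in TPM). The very low Acadsb was at 0.20 in TPM there, but was called lower by edgeR (−1.88) and DESeq2 (−2.03). The counts over all 10275 genes moved with the spike-in too. By DESeq2 with ERCC size factors 147 were higher and 1786 lower at 16 h of Ex-4. The same test gave 821 and 1074 at 16 h of FSK, and 619 and 1051 at 8 h of FSK.

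Fads1 changed less in Med14 S983A at 16 h of both agents, and Acsl3 and Acsl4 changed less there at 16 h of FSK. The interaction of Fads1 was −0.75 (SE 0.05, limma adjusted p 6.2e-11) at 16 h of Ex-4 and −0.83 (SE 0.05, limma adjusted p 2.7e-12) at 16 h of FSK. In both cases the treated libraries of the genotypes were close, with 432 and 445 TPM in WT and 403 and 427 TPM in Med14 S983A after FSK, while the CON libraries were not. Acsl4 differed by −0.81 (SE 0.09, limma adjusted p 2.0e-08) at 16 h of FSK, where WT had 123 and 135 TPM and Med14 S983A 123 and 127 TPM. At 16 h of Ex-4 the interaction of Acsl4 was −0.42 and that of Acsl3 −0.22, neither called in TPM. With ERCC scaling they were −0.84 and −0.63, and by DESeq2 −0.86 and −0.66, called in each case. Also called lower with ERCC scaling at 16 h of Ex-4 were the synthesis genes Srebf1 (−0.82), Fads2 (−0.80), Elovl1 (−0.60) and Aacs (−0.59). Oxidation genes were called lower with that scaling too: Acads (−0.77), Eci1 (−0.75), Hadh (−0.74), Etfb (−0.73), Acadsb (−0.70) and Slc25a20 (−0.59). By DESeq2 the median interaction of all genes at 16 h of Ex-4 was −0.33. For Acsl3 at 16 h of FSK the interaction was −0.79 (SE 0.08, limma adjusted p 8.6e-09). There Med14 S983A stayed above WT, with 72.6 and 70.3 TPM against 45.7 and 46.4 TPM.

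Acaca gave the opposite sign in all 4 tests. It had 31.6 and 30.3 TPM in WT CON and 30.8 and 28.03 TPM in Med14 S983A CON. WT libraries had 21.1 and 23.2 TPM at 16 h of Ex-4 and 15.01 and 15.7 TPM at 16 h of FSK, whereas Med14 S983A had 36.4 and 33.9 TPM and 28.3 and 29.9 TPM. The libraries of the genotypes at 16 h did not overlap, with Med14 S983A the higher. The interactions were 0.85 (SE 0.10, limma adjusted p 1.1e-06) at 8 h of Ex-4 and 0.72 (SE 0.10, limma adjusted p 3.3e-06) at 16 h of Ex-4. They were 0.68 (SE 0.10, limma adjusted p 3.7e-06) at 8 h of FSK and 0.95 (SE 0.10, limma adjusted p 1.4e-08) at 16 h of FSK. With ERCC scaling the value at 16 h of Ex-4 was 0.30 and that at 8 h of FSK 0.58, neither called. Acsl1 differed by 0.71 (SE 0.07, limma adjusted p 1.6e-08) at 16 h of Ex-4, with 33.9 and 33.4 TPM in WT and 65.6 and 64.5 TPM in Med14 S983A. It was between 0.29 and 0.58 and not called under both scalings and DESeq2.

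Cyp4a8 was called in all 4 tests and had the largest interaction of the 34 genes in TPM at 16 h of each agent. Its values were 0.82 (SE 0.12, limma adjusted p 1.9e-05) at 8 h of Ex-4, 1.11 (SE 0.12, limma adjusted p 6.2e-08) at 16 h of Ex-4, 0.71 (SE 0.12, limma adjusted p 2.2e-05) at 8 h of FSK and 2.05 (SE 0.12, limma adjusted p 3.4e-13) at 16 h of FSK. After 16 h of FSK the genotypes overlapped, with 23.1 and 23.5 TPM in WT, down from CON, and 21.9 and 23.6 TPM in Med14 S983A, up from CON. Acaa2 likewise went from a difference at CON to 25.2 and 23.7 TPM in WT and 25.7 and 27.5 TPM in Med14 S983A, with interactions of 0.70 (SE 0.07, limma adjusted p 2.2e-08) at 8 h and 1.21 (SE 0.07, limma adjusted p 9.3e-13) at 16 h of FSK. By DESeq2 the value at 8 h was 0.58 and not called.

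Hadhb differed by 0.94 (SE 0.06, limma adjusted p 2.9e-12) at 16 h of FSK. It encodes the thiolase subunit of the trifunctional protein, whose other subunit is Hadha, and the genes share the promoter region printed above. In WT both were lower with FSK, though not called: Hadha had 285 and 278 TPM in CON and 219 and 218 TPM at 16 h, and Hadhb had 242 and 242 TPM and 166 and 173 TPM. In Med14 S983A they parted. Hadha went from 243 and 236 TPM to 197 and 188 TPM, a change of −0.32, and Hadhb from 183 and 162 TPM to 226 and 241 TPM, a change of 0.43 that was called with ERCC scaling, at 0.68, but not in TPM. At 0.04 the interaction of Hadha was not called.

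The synthesis and oxidation genes were then compared as wholes over the 14 groups. For each library the mean log2(TPM + 1) of the 19 oxidation genes was subtracted from that of the 12 synthesis genes, a difference that scaling a library leaves almost as it is. It is a description of these lists and carries no test. WT CON had a value of 0.81 ± 0.04 (SD, n = 2), and Med14 S983A CON one of 1.58 ± 0.05 (SD, n = 2). The genotype difference of 0.77 was made of 0.35 in synthesis and −0.41 in oxidation. Without Srebf1, Acadsb and Cyp4a8 it was 0.48.

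Every group at 8 or 16 h had a larger value than its CON group. WT cells reached 1.20 ± 0.04 with 16 h of Ex-4 and 1.51 ± 0.03 with 16 h of FSK (SD, n = 2 each), still below Med14 S983A CON. The mutant cells reached 1.93 ± 0.04 and 1.96 ± 0.02 (SD, n = 2 each). The routes to these values differed. In WT the rise of 0.39 at 16 h of Ex-4 came with 0.30 in synthesis and −0.09 in oxidation, whereas the rise of 0.70 at 16 h of FSK came with 0.17 and −0.52. At 8 h of FSK both means were lower, by −0.38 and −0.91 in WT and by −0.45 and −0.84 in Med14 S983A.

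**Figure D5:**
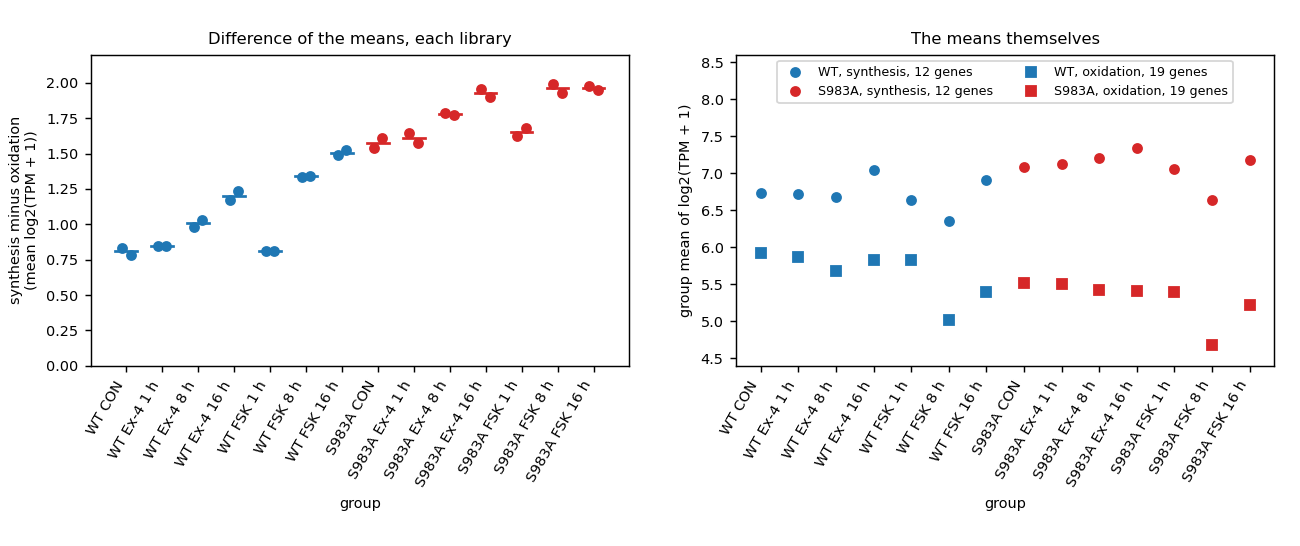
Left, mean log2(TPM + 1) of 12 synthesis genes minus that of 19 oxidation genes in each library (points) with the group mean (line) for the 14 groups; right, the group means of each list. The lowest values are near 0.81 in WT CON and at 1 h of FSK in WT, and the highest are near 1.96 in Med14 S983A at 8 and 16 h of FSK. Both lists are lowest at 8 h of FSK in each genotype.

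Other genes of the pathways were counted over 4 further lists. In the untreated mutant cells, 3 of 21 other synthesis genes were higher than in WT and 1 was lower, where 8.29% of all genes were higher and 11.1% lower. The phosphogluconate dehydrogenase Pgd, a source of NADPH, differed by 1.63 (SE 0.04, limma adjusted p 4.0e-21), and the stearoyl-CoA desaturase Scd2 had 686 TPM as its mean in WT and 1759 TPM in Med14 S983A, a difference of 1.36 (SE 0.05, limma adjusted p 4.6e-18). The lower gene was the elongase Elovl7 at −0.80. Below these shares, of 21 other oxidation genes 1 was higher (Ivd, of leucine breakdown, 0.68) and 1 lower (the peroxisomal thiolase Acaa1a, −0.79). Among 7 genes of uptake and binding the acyl-CoA binding protein Dbi was higher by 0.65, and the synthetase Acsl5 (−0.82) and the binding protein Fabp3 (−0.67) were lower. Of 17 genes of storage and lipolysis, 1 was higher (the phosphatidate phosphatase Lpin2, 1.09) and 4 were lower, led by the monoacylglycerol lipase Mgll (−1.95) and the lipid droplet protein Plin2 (−0.86).

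In WT, 4 of the 21 other synthesis genes were higher and 1 lower at 16 h of Ex-4, where 3.53% of all genes were higher and 8.28% lower. Median-centring made this 6 and 0, and ERCC scaling 9 and 0. Among all 10275 genes, 1134 were higher and 363 lower by DESeq2 with ERCC size factors. Insig1, which retains the SREBP complex in the endoplasmic reticulum and is itself an SREBP target, had a mean of 67.8 TPM in CON and 278 TPM at 16 h, a change of 2.02 (SE 0.04, limma adjusted p 9.7e-22). Acetyl-CoA synthetase Acss2 changed by 1.78 (SE 0.05, limma adjusted p 2.7e-20). The glucose-responsive regulator Mlxipl was the lower one, at −0.67, and was not called under either scaling. Of the other oxidation genes, the coactivator Ppargc1a was higher, from 2.87 to 11.2 TPM (1.66), and the carnitine octanoyltransferase Crot was lower (−0.91), and these counts of 1 and 1 became 3 and 1 with ERCC scaling. Of the 7 uptake and binding genes limma called 0 in TPM, and 2 were higher with ERCC scaling. In storage and lipolysis 3 of 17 genes were lower and 0 higher in TPM, and 2 were lower and 2 higher with ERCC scaling. The lower genes in TPM were led by Mgll (−1.07) and the acyltransferase Gpam (−0.92).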

How the data were processed

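The authors aligned reads to rn6 plus the ERCC sequences (STAR 2.5.3a) and deposited TPM of RefSeq transcripts over exons (HOMER 4.11.1) and raw counts of the 92 ERCC sequences (QoRTs). Their own calls used DESeq2 1.24.0 with ERCC size factors. The spike-in went into a fixed mass of total RNA, so it scales to RNA mass and not to cells. Groups and replicate numbers came from the sample titles.

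For each symbol only the transcript with the highest mean TPM entered, so that 1676 transcripts were set aside and 17455 symbols remained. In R 4.3.3, limma 3.58.1 (eBayes with trend) was fitted to log2(TPM + 1), a scale that understates changes of low genes, over 28 libraries, 14 group means and the 10275 genes that reached a mean of 1 TPM. Tests were two-sided, Benjamini-Hochberg adjustment ran over all genes of a contrast, and calls needed an adjusted p under 0.05 with over 1.5-fold. On simulated counts for WT 16 h Ex-4 (10153 genes, 200 changed), 99% of 2-fold and 100% of 3-fold changes were recovered, with 1 wrong call. The simulated rises and falls were balanced, so it did not cover a shift of the median of all genes or changes near 1.5-fold.

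Fragments were recovered from TPM, transcript length and the deposited ERCC counts: of 115828 low values, 100% were whole within 0.05 reads, at 2 reads per fragment. They served edgeR 4.0.16 (TMM) and DESeq2 1.42.0 (ERCC size factors). Other alternatives were a pseudocount of 0.1, no filter, median-centring, ERCC scaling, the replicate number as a block and leaving out each library. Libraries held 42551133 to 92635979 fragments, and replicates differed by more than counting noise in every group (chi-square over its degrees of freedom 2.47 to 9.83).

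The 36 genes, the other lists and the tests were chosen with earlier results of these data known. Values in each library are given for the 8 called genes with the largest differences at CON between genotypes and at 16 h of each agent in WT, and for genes called in an interaction. From each other list, at most 2 rises and 2 falls are named.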

Additional observations from a re-analysis of the deposited data

Results flagged for a closer look

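Responses that differed between the genotypes, tested as an interaction in limma with an adjusted p under 0.05 and over 1.5-fold, were 16 in number. For Ex-4 they were Acaca (0.85) and Cyp4a8 (0.82) at 8 h, and Cyp4a8 (1.11), Acaca (0.72), Acsl1 (0.71) and Fads1 (−0.75) at 16 h. For FSK they were Cyp4a8 (0.71), Acaa2 (0.70) and Acaca (0.68) at 8 h, and Cyp4a8 (2.05), Acaa2 (1.21), Acaca (0.95), Hadhb (0.94), Fads1 (−0.83), Acsl4 (−0.81) and Acsl3 (−0.79) at 16 h. Each value is a log2 difference, the change in Med14 S983A minus the change in WT.

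Cyp4a8, Acaa2, Fads1 and Acsl4 were all called in the genotype comparison at CON, and at 16 h of FSK the WT and Med14 S983A libraries overlapped for Cyp4a8 and Acsl4 and did not for Acaa2 and Fads1. With 2 libraries a group, no search for a library apart from its group was made.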

How the results depend on the processing

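No call changed direction. Of 113 calls of single genes, all remained without the filter, with a pseudocount of 0.1 and with the replicate block, 101 with edgeR, 99 with DESeq2, 97 with ERCC scaling and 91 after median-centring, and 772 of 780 remained when a library was left out. Numbers of called genes that moved by over 1.5 times were these: WT 8 h Ex-4, from 1 to 2 (pseudocount 0.1, edgeR) and 0 (median-centring, ERCC scaling); WT 16 h Ex-4, from 5 to 8 (median-centring), 10 (ERCC scaling), 9 (edgeR) and 11 (DESeq2). Med14 S983A at 8 h Ex-4 went from 1 to 3 (pseudocount 0.1, edgeR) and 2 (DESeq2), and at 1 h FSK from 0 to 1 (median-centring, edgeR), 2 (ERCC scaling) and 3 (DESeq2). The 16 h Ex-4 interaction went from 4 to 14 (ERCC scaling) and 12 (DESeq2), and that at 8 h FSK from 3 to 5 (pseudocount 0.1, DESeq2) and 6 (edgeR). Leaving out a library gave 1 to 2 for WT 8 h Ex-4, 0 to 1 for WT 1 h FSK, 1 to 2 for Med14 S983A 8 h Ex-4 and 0 to 2 for Med14 S983A 1 h FSK. The cause was not tested.

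The synthesis minus oxidation difference moved by more than the spread between replicates with the choice of genes and the pseudocount. At CON between genotypes it was 0.88 (pseudocount 0.1), 0.73 (no filter), 0.85 (activation genes counted as synthesis) and 0.48 (without regulators and outlying genes). In that order of the last 2 it was 0.44 and 0.44 for WT 16 h Ex-4, and it was 0.75 (pseudocount 0.1) and 0.84 (activation genes) for WT 16 h FSK. For Med14 S983A it was 0.31 (no filter), 0.41 and 0.47 at 16 h Ex-4, and 0.43 (pseudocount 0.1), 0.47 and 0.50 at 16 h FSK.

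The replicate numbers did not pair the libraries: over 91 pairs of groups the correlation of deviations ran from −0.28 to 0.28, with 17 over 0.1, and with the replicate block 5 genes were called at WT 16 h Ex-4 and 12 at CON between genotypes, as without it.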

Other observations

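Acacb, left out of the tests, had 0.202 and 0.156 TPM in WT CON and 0.46 and 0.394 TPM at 16 h of FSK, and 0.203 and 0.213 TPM in Med14 S983A CON and 0.669 and 0.637 TPM at 16 h of FSK. Ppara had 0.576 and 0.477 TPM in Med14 S983A CON and 0.3 and 0.21 TPM at 8 h of FSK.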
